A study of Homo sapiens with 8 samples.

Results

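The HOX genes encode homeodomain transcription factors and lie in 4 clusters in the human genome, HOXA, HOXB, HOXC and HOXD. The 38 genes examined here were taken from a list of HOX genes of these clusters, and all 38 were found once each among the 19970 protein-coding genes of GENCODE release 44. They were 10 genes of HOXA on chromosome 7, 10 of HOXB on chromosome 17, 9 of HOXC on chromosome 12 and 9 of HOXD on chromosome 2. The rule that lists them names genes and uses no measured value.

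Within a cluster the HOX genes are ordered along the chromosome in the order in which they act along the body axis, from the hindbrain to the tail, and their numbers mark the paralogs that share a position in different clusters. Polycomb proteins keep HOX genes silent where they are not used, and trithorax proteins keep them active. ASH1L, a methyltransferase of histone H3 with lysine 36 among its reported targets, belongs to the trithorax side and is known for its role at HOX genes.

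Open chromatin was mapped with ATAC-seq, which relies on Tn5 transposase cutting and tagging DNA that is not packed away, in the osteosarcoma cell line U2OS. There were 8 libraries, of cells with intact ASH1L (WT) and of a line in which the gene was disrupted (ASH1L-/-), each either unchallenged or 3 h after UV-C irradiation at 20 J per square metre, with 2 biological replicates in each of the 4 groups. The ASH1L-/- cells were made with CRISPR/Cas9 and grown from individual colonies after puromycin selection. Whether the 4 ASH1L-/- libraries came from 1 clone is not given in the sources used here, so that clone and genotype cannot be told apart. The comparison of genotypes addressed whether accessibility of HOX genes depended on ASH1L, and that of irradiated with unchallenged cells whether it changed after UV damage.

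Each list held between 158198 and 220783 distinct accessible regions, without read counts. The mean pileup recovered from the lists ranged from 1.39 to 2.81 in 7 libraries and reached 5.87 in replicate 1 of unchallenged ASH1L-/- cells. The targeted gene ASH1L had a region at its start site in all 8 libraries, and between 9 and 14 regions over its span in WT cells against 3 to 9 in ASH1L-/- cells. Small deletions are not visible in such lists. Of 7 mesenchymal markers, 5 had a region within 1 kb of a transcription start site (TSS) in all 8 libraries, while TWIST1 had one in 2 libraries. The same held for 2 of 3 epithelial markers, 2 of 2 neural markers and 0 of 4 blood markers.

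Accessibility of a gene was expressed as the percentile of its strongest region, because values of different lists share no scale. The percentile is the percent of regions of the same list with the same or a lower fold enrichment, the height of the peak over its local background. Regions were sought in the gene span extended by 2 kb on both sides, and a gene without a region was given 0. Neighbouring HOX genes overlap, so that 1 region often counted for several genes. Between 34 and 38 HOX genes had a region in a library, but these rested on 28 to 32 distinct strongest regions.

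Sites that carry the results are shown first, as 200 bases around the summit, to let the open sequence be read beside its values. They are the strongest sites of HOXA and HOXD and 3 sites with a difference between groups. Sequences are the plus strand of hg38, and capitals mark matches on either strand to GGGCGG (the GC box of Sp1-like factors), TGANTCA (the AP-1 site), AGGNGGC (part of the CTCF motif) and TAATTA (a core bound by many homeodomains).
HOXD3 span site, chr2:176140677-176140876: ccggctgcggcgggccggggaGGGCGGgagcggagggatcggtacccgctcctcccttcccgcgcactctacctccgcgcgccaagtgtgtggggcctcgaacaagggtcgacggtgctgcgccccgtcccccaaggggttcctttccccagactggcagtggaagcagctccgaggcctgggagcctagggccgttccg
HOXA4 promoter site, chr7:27130996-27131195: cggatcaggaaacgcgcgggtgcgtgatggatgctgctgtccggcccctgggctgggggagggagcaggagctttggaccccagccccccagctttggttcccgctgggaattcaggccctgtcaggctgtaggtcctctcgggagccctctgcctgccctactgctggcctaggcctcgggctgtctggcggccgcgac
HOXC4 site open in WT alone, chr12:54053189-54053388: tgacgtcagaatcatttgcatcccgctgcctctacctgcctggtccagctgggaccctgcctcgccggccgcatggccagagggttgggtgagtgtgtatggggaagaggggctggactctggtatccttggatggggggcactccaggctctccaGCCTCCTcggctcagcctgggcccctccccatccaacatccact
HOXC4 site with higher percentiles in ASH1L-/- cells, chr12:54051476-54051675: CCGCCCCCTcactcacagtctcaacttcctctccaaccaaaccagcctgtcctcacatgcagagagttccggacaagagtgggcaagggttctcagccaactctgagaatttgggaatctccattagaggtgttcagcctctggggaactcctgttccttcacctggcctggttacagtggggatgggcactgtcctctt
HOXA3 intron site open after UV alone, chr7:27134464-27134663: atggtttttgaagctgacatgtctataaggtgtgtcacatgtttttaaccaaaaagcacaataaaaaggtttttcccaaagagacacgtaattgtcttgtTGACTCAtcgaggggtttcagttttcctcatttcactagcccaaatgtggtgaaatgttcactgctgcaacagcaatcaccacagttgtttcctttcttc
Capitals in the HOXC4 site with higher percentiles in ASH1L-/- cells are a GC box and a CTCF core that overlap. A match describes the letters alone. The GC box was found in 5.77% of the 548037 windows of the same length around all sites of the 8 lists, AP-1 in 11.1%, the CTCF core in 15.6% and TAATTA in 4.3%. Over 145 windows at HOX sites the shares were 24.1%, 3.45%, 25.5% and 4.14%. Their median GC content was 55.0% against 47.5% over all windows, and their median number of CpG dinucleotides was 8 against 2. Among sites open in all 8 libraries, the AP-1 motif was found in 2 of 36 HOX windows (5.56%) against 23.0% of 60323 windows, the GC box in 11 of 36 (30.6%) against 14.9%, the CTCF core in 3 of 36 (8.33%) against 19.5% and TAATTA in 3 of 36 (8.33%) against 3.38%. The share with a CTCF core was thus above that of all windows over all HOX sites and below it over the sites open in all 8 libraries.

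The HOX clusters of U2OS cells were open to very different degrees. Of the 38 genes, 30 (78.9%) had a region in all 8 libraries, against 83.1% of all protein-coding genes. The median over genes of the median percentile was 75.9 for HOX genes and 89.8 for the 18678 genes with a region in at least 2 libraries. HOX genes are short, with a median span of 4218.5 bp against 30428.5 bp, and a longer span can hold a stronger region. Within 1 kb of any annotated TSS of a gene the medians were 65.3 and 82.1, though a gene with more start sites had more such windows. A TSS region was found in all 8 libraries at 22 HOX genes (57.9%) and at 67.6% of all protein-coding genes. In HOXA 7 genes, in HOXB 5, in HOXC 7 and in HOXD 3 had such a TSS region in all 8 libraries.

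**Figure D1:**
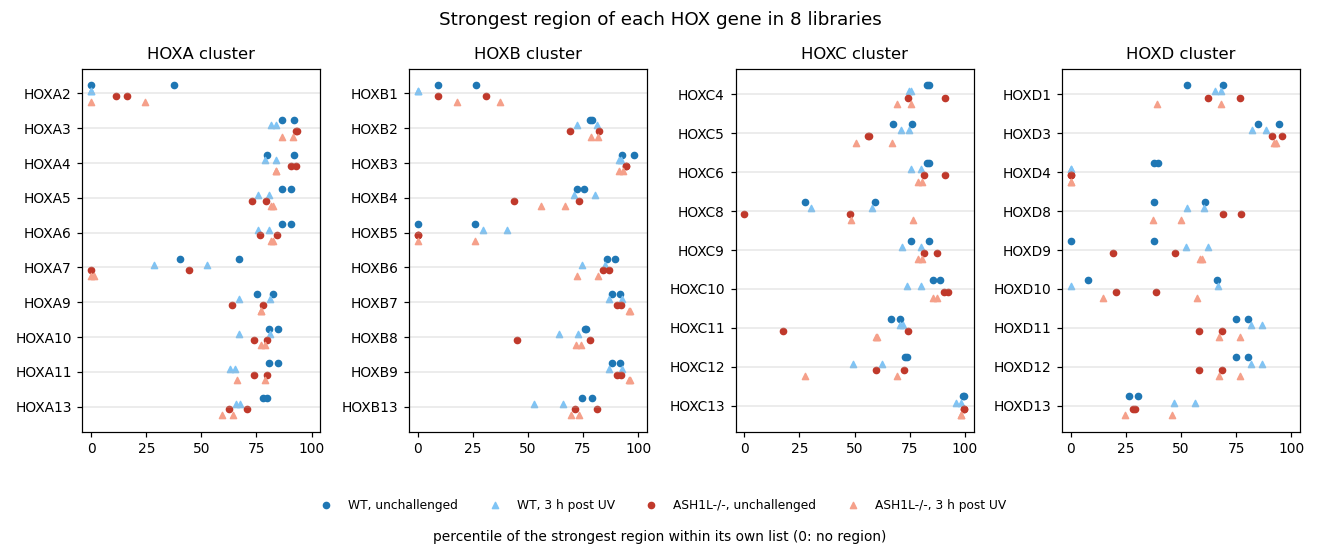
Percentile of the strongest region within its own list (x axis, 0 to 100, 0 for no region) for each of the 38 HOX genes (y axis), by cluster. Each point is 1 library, with circles for unchallenged cells, triangles for cells 3 h post UV, blue for WT and red for ASH1L-/-. HOXC13 lies between 96.2 and 99.5 in all 8 libraries, whereas HOXD4 has a region in 2 libraries alone.

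HOXC13, which acts in hair and nail formation, had the strongest region of all 38 genes. Its span is chr12:53938831-53946544 and its site chr12:53938190-53938945 had its summit 261 bp from the TSS, in an intron of the antisense gene HOXC13-AS. Without UV the percentile was 99.2 and 99.5 in WT and 99.4 and 99.4 in ASH1L-/- cells, and post UV 98.1 and 96.2 in WT and 98.4 and 98.2 in ASH1L-/- cells. The fold enrichment, the deposited ratio within a list, was between 15.7 and 20.6. HOXB3, which patterns the hindbrain and neck, followed with percentiles between 91.1 and 97.9. Its strongest site, chr17:48585192-48586280, was in an intron, 3063 bp from the nearest TSS.

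HOXB9 and HOXB7, which pattern the thoracic skeleton, shared a region between 86.6 and 96.5. The site, chr17:48625963-48627024, had its summit 295 bp from the TSS of HOXB9. HOXD3, which takes part in neck patterning, lay between 82.3 and 95.7. Its site, chr2:176140356-176141188, was outside the canonical transcript but inside the gene span, 3820 bp from the nearest HOXD3 start, while its TSS windows held a region in 5 libraries. HOXA3, needed for thymus and parathyroid, lay between 81.4 and 93.2, and HOXA4, which lies inside the HOXA3 span, between 78.8 and 92.8. The TSS windows of HOXA3 held a region in 5 libraries, with percentiles of at most 16.3. The strongest HOXA site by mean percentile, chr7:27130692-27131416, had its summit 316 bp from the HOXA4 TSS and lay in introns of HOXA3 and HOXA-AS3.

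At the other end, 8 genes lacked a region in at least 1 library. HOXD4 had one in 2 libraries, HOXA2 and HOXB5 in 4, HOXA7 and HOXB1 in 6, and HOXC8, HOXD9 and HOXD10 in 7. HOXA2 and HOXB1 specify segments of the hindbrain and the arches it supplies. HOXA2 gave 0 and 37.5 in WT and 11.4 and 16.4 in ASH1L-/- cells without UV, and 0 and 0 in WT and 0 and 24.6 in ASH1L-/- cells post UV. HOXB1 gave 26.6 and 9.16, 9.36 and 30.9, 0 and 0, and 37.4 and 17.7 in the same order. Neither gene had a percentile above 37.5 in any library, and their groups overlapped. At HOXB8, HOXC12 and HOXD12 no library had a region within 1 kb of a TSS, and their percentiles came from regions farther away or of a neighbour.

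Ordered by paralog group, the median over genes of the mean percentile was 77.9 for the 11 genes of groups 1 to 4, 69.7 for the 11 of groups 5 to 8 and 74.2 for the 16 of groups 9 to 13. A region in all 8 libraries was found at 8, 8 and 14 of them. By cluster the same median was 76.6 in HOXA, 74.4 in HOXB, 78.4 in HOXC and 55.6 in HOXD. These are descriptions of genes that share regions and differ in span, without a test. The longest span was 56043 bp in groups 1 to 4 (HOXB3), 40200 bp in groups 5 to 8 (HOXC6) and 12743 bp in groups 9 to 13 (HOXA9). A longer span can hold a stronger region, and the part of span length was not tested.

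**Figure D2:**
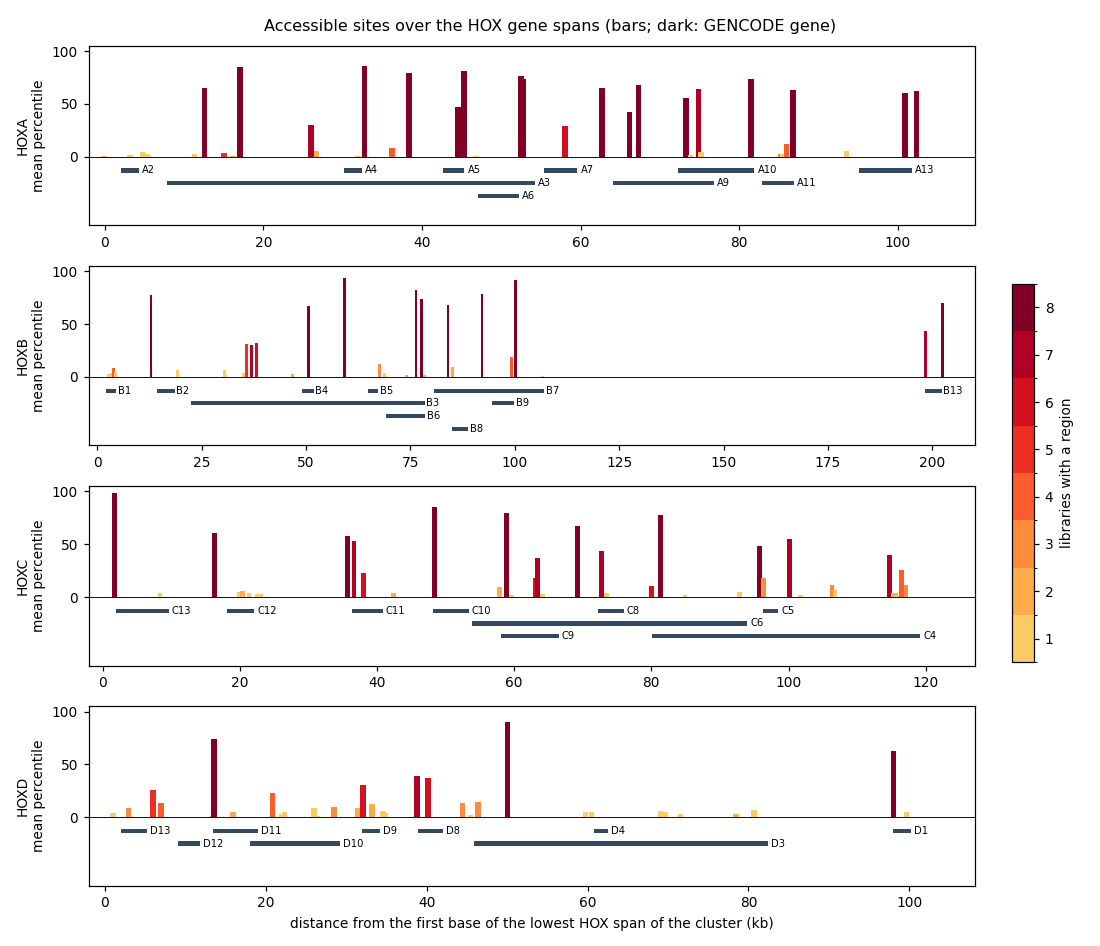
Sites joined from the 8 lists along each cluster, with the distance from the first base of the lowest extended gene span in kb (x axis) and the mean percentile over 8 libraries (bar height, y axis). Bar colour gives the number of libraries with a region from 1 to 8 and dark bars below 0 are the gene spans. HOXA holds 16 sites open in all 8 libraries and HOXD 3.

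Along the clusters, the lists were joined to 145 sites within the extended HOX spans, which cover 403 kb. A region was present in all 8 libraries at 36 sites (24.8%), against 11.0% of all 548046 sites. HOXA had 16 such sites of 38, HOXB 9 of 32, HOXC 8 of 40 and HOXD 3 of 35. The 3 constant HOXD sites were those of HOXD3, of HOXD1 (chr2:176187432-176189025, summit 90 bp from the TSS) and of HOXD11 (summit 94 bp from its TSS). Of the 16 constant HOXA sites, 12 lay within 1 kb of an annotated TSS of any gene, including non-coding genes.

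Non-coding genes of the clusters were open to different degrees as well. Of 22 such genes, 12 had a region within 1 kb of a TSS in all 8 libraries and 5 in none. HOTAIR, a long non-coding RNA of HOXC, lay between 59.7 and 74.4, HOTTIP, transcribed from beside HOXA13, between 59.5 and 79.9, and HOTAIRM1, at the 3′ end of HOXA, between 78.2 and 91.4. The microRNA genes MIR196A2, MIR196B and MIR10A had no region in any list. MIR10B beside HOXD4 had one in the same 2 libraries as HOXD4. Antisense and host genes that share a region cannot be told apart.

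EVX1 and EVX2 are homeobox genes that flank HOXA and HOXD. EVX1 lay between 40.4 and 71.3 in the 8 libraries. EVX2 lay between 69.9 and 77.1 in 7 libraries and had no region in replicate 2 of unchallenged ASH1L-/- cells, the shallowest library. A region within 1 kb of a TSS was found in 1 library for EVX1 and in 0 for EVX2. The percentiles thus came mostly from regions farther away or of a neighbour. Genotype and UV groups overlapped for both genes.

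Between ASH1L-/- and WT cells, no single HOX gene had a difference in accessibility rank that passed adjustment over all genes. The mean percentile was higher in ASH1L-/- cells for 16 genes (42.1%, against 63.2% of all genes fitted) and lower for 22, with a median difference of -1.47 points against 0.61 over all genes fitted. The 4 libraries of each genotype did not overlap at 1 gene, HOXC5, which was lower in ASH1L-/- cells, and at 0 genes in the other direction. Over all 18678 genes the shares without overlap were 1.08% lower and 2.18% higher, so that 1 of 38 (2.63%) was near the background. With limma across all genes, 0 HOX genes had an adjusted p below 0.05 (lowest adjusted p = 0.446), against 0.118% of all genes, and the SE of their differences was 3.92 points at the median.

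**Figure D3:**
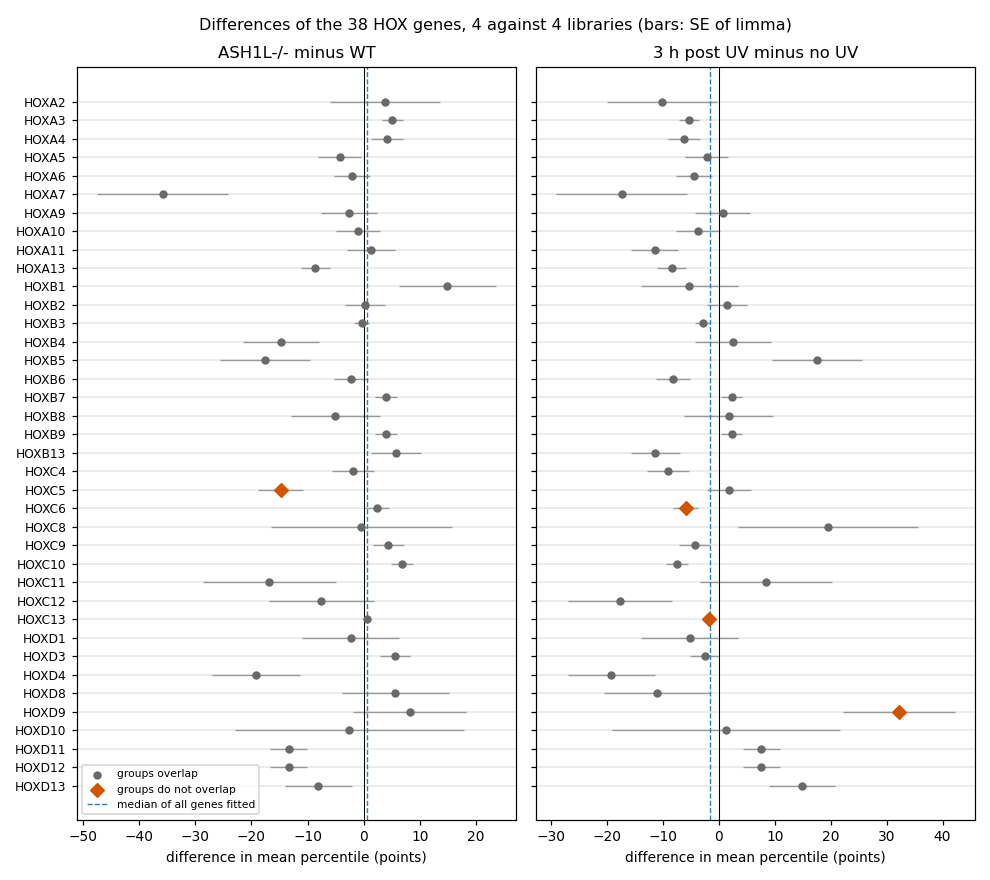
Difference in mean percentile in points (x axis) for each HOX gene (y axis), ASH1L-/- minus WT on the left and 3 h post UV minus unchallenged on the right, 4 against 4 libraries. Bars are the SE of limma, diamonds mark genes whose groups do not overlap and the dashed line is the median of all genes fitted (0.61 and -1.53). HOXC5 is the diamond on the left, and HOXC6, HOXC13 and HOXD9 are those on the right.

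HOXC5, a gene of cervical and thoracic patterning at chr12:54033050-54035361, had percentiles of 67.6 and 76.1 in unchallenged WT cells and 70.9 and 74.9 in WT cells post UV. In ASH1L-/- cells they were 56.6 and 56.1 without UV and 50.5 and 67.1 after it. All 4 ASH1L-/- values lay below the lowest WT value, the highest of them narrowly. The mean was 72.4 ± 3.90 in WT and 57.6 ± 6.93 in ASH1L-/- cells (SD, n = 4 and 4), a difference of -14.8 points with p = 0.0286, the smallest value that an exact permutation test, two-sided, can give for 4 against 4. The adjusted p of limma across all genes was 0.489.

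The difference depended on which region was read. The strongest region was at times the site chr12:54032402-54032915, upstream of the HOXC5 TSS by 432 bp, and at times the site chr12:54036769-54037290, downstream of HOXC5 and 900 bp from a TSS of HOXC4. Restricted to the gene span without extension, the difference turned to 36.0 points in the other direction (p = 0.143, exact permutation test), and within 1 kb of the TSS to 8.77 points (p = 0.429, exact permutation test). With regions of q below 0.05, or of q at or below 0.01, the genotype groups of HOXC5 overlapped.

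At an unadjusted limma p below 0.05, 8 HOX genes (21.1%) were named, against 7.55% of all genes, and 2 of them, HOXD11 and HOXD12, shared 1 region. The 8 include HOXD4, which had a region in 2 libraries alone. HOXD11 and HOXD12 act in limb patterning. Without extension, HOXD12 gave a difference of 0. Their shared site, chr2:176104054-176106252, gave 80.4 and 75.1 in WT and 68.4 and 58.3 in ASH1L-/- cells without UV, and 86.7 and 81.8 in WT and 67.0 and 76.9 in ASH1L-/- cells post UV. Only the last of these ASH1L-/- values lay above a WT value, and the difference was -13.4 points (p = 0.0571, exact permutation test, adjusted limma p = 0.446).

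HOXA7, a gene of thoracic patterning, gave 67.2 and 40.3 in WT and 0 and 44.2 in ASH1L-/- cells without UV, and 52.3 and 28.7 in WT and 1.18 and 0 in ASH1L-/- cells post UV. A single ASH1L-/- library overlapped the WT range, and the difference was -35.8 points (SE 11.7, adjusted limma p = 0.584, exact permutation p = 0.0857). Without that library, replicate 2 of unchallenged ASH1L-/- cells, the groups did not overlap and the difference was -46.8 points, on 4 against 3 libraries. That library was also the shallowest, with a mean pileup of 1.39. With an extension of 5 kb the difference was -1.98 points (exact permutation p = 0.714).

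The other 4 were HOXA13 with -8.62 points, HOXD4 with -19.2, HOXA3 with 5.09 and HOXC10 with 6.77. HOXA13 and its HOXD paralog shape the distal limb and genital tract, and HOXC10 acts in the lumbar region and hindlimb. The genotype groups of all 4 overlapped. HOXD4 was at 0 in every library but the 2 of unchallenged WT cells. Its limma p is thus not evidence of a difference. Without extension, HOXA13 gave -3.30 points and HOXD4 0.

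Sites, taken on their own rather than by gene, separated the genotypes in 1 place. The site chr12:54052973-54053658 had a region in all 4 WT libraries and in none of the 4 ASH1L-/- libraries. It lay 546 bp upstream of the most 3′ TSS of HOXC4, at chr12:54053835-54053835, outside the canonical transcript but inside the HOXC4 gene span. The 2 unchallenged WT libraries had percentiles of 72.8 and 73.8 and the 2 post UV 31.7 and 27.8, with fold enrichments of 4.58, 5.49, 2.96 and 3.28. No region touched it in the deepest library, replicate 1 of unchallenged ASH1L-/- cells.

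Of all 548046 sites 0.0768% had a region in the WT libraries alone, against 1 of 145 HOX sites (0.69%), and 0.186% in the ASH1L-/- libraries alone, against 0 HOX sites. The count was also 1 with regions of q below 0.05, of q at or below 0.01 and with an overlap of 50%. HOXC4 encodes an anterior HOX protein that is also expressed in lymphocytes and keratinocytes. Its gene-level percentile, set by other regions, was between 69.1 and 90.8 with overlapping genotypes (difference -1.89 points, exact permutation p = 0.743).

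**Figure D4:**
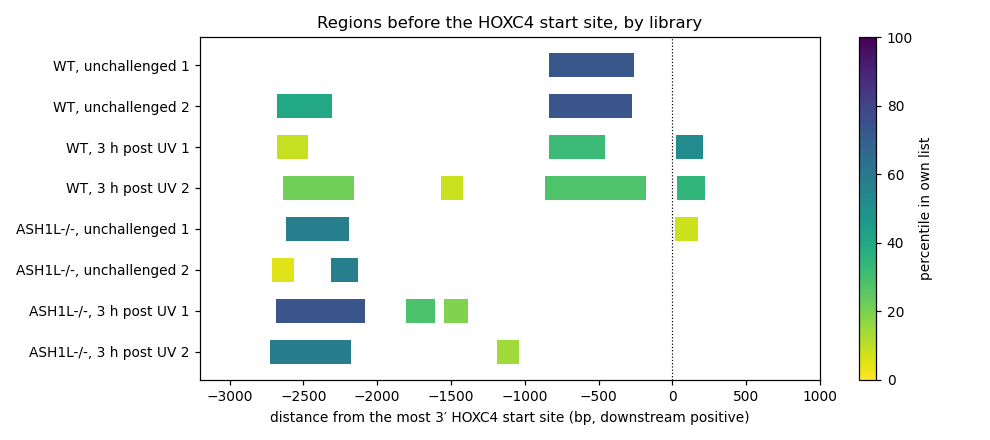
Regions of each library (rows) by distance in bp from the most 3′ TSS of HOXC4 (x axis, upstream negative), coloured by percentile within the list. The 4 WT libraries have a region with a summit between -765 and -546 bp and the 4 ASH1L-/- libraries have none there, while regions with summits between -2514 and -2219 bp have percentiles of 57.1 or more in ASH1L-/- cells.

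A neighbouring site, picked out on seeing its values, had the opposite difference. The site chr12:54051112-54051748, 2259 bp upstream of the same TSS, gave 0 and 40.1 in WT and 57.4 and 57.1 in ASH1L-/- cells without UV, and 8.84 and 21.6 in WT and 73.6 and 58.4 in ASH1L-/- cells post UV. All 4 ASH1L-/- values lay above all 4 WT values, with a difference of 44.0 points (exact permutation p = 0.0286, unadjusted over sites). Percentiles failed to overlap in this direction at 1 of 88 HOX sites present in 2 or more libraries (1.14%), against 2.04% of all 216352 such sites. In the other direction it was 1 of 88, the site open in WT alone, against 1.10% of all such sites. The counts were thus near the background.

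After UV, 23 HOX genes had a lower mean percentile and 15 (39.5%, against 32.7% of all genes fitted) a higher one, with a median difference of -3.32 points against -1.53 over all genes fitted. The groups did not overlap at 2 genes that were lower post UV, HOXC13 and HOXC6, and at 1 that was higher, HOXD9. Over all genes fitted 15.0% were lower without overlap and 3.99% higher, so that 2 of 38 (5.26%) was below and 1 of 38 (2.63%) near the background. No HOX gene reached an adjusted limma p below 0.05 (0 of 38, lowest adjusted p = 0.114), against 0.696% of all genes, and 10 (26.3%) had an unadjusted p below 0.05, against 23.4%. The 10 include HOXD4, which had a region in 2 libraries alone, so that its limma p is not evidence of a difference. The genotype and UV comparisons used the same 8 libraries.

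HOXD9, a limb and trunk patterning gene at chr2:176122719-176124937, had the largest UV difference of the 38. Unchallenged cells gave 0 and 37.5 in WT and 47.0 and 19.1 in ASH1L-/-, and cells post UV gave 62.1 and 52.1 in WT and 59.7 and 58.6 in ASH1L-/-. The 4 values after UV lay close together and above all 4 values without it. The mean was 58.1 ± 4.25 post UV and 25.9 ± 20.8 without (SD, n = 4 and 4), a difference of 32.2 points with p = 0.0286 (exact permutation test) and an adjusted limma p of 0.146.

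Depth moved with this result in part. The 4 libraries post UV had a mean pileup between 2.45 and 2.81, and 3 of the 4 unchallenged libraries lay between 1.39 and 2.10. The deepest unchallenged library, at 5.87, gave 47.0. With log2 depth as a covariate the limma difference was 30.4 points (SE 9.60, adjusted p = 0.182), and the part of depth in the result was not tested further. With an extension of 5 kb the difference dropped to 9.17 points and the groups overlapped.

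HOXC13 was lower post UV, with a mean of 97.7 ± 1.03 against 99.4 ± 0.12 (SD, n = 4 and 4), as the values above show for each library. The difference was -1.67 points, close to the median of all genes, with p = 0.0286 by an exact permutation test and an adjusted limma p of 0.244. HOXC6, which patterns the thorax, gave 83.8 and 83.1 in WT and 90.8 and 81.6 in ASH1L-/- cells without UV, and 75.8 and 80.1 in WT and 78.9 and 80.8 in ASH1L-/- cells post UV. All 4 values after UV lay below the 4 without it, the nearest of them by little. The difference was -5.93 points (exact permutation p = 0.0286, adjusted limma p = 0.186), and the groups overlapped with regions of q below 0.05 or at or below 0.01, over every record, with an extension of 5 kb and within 1 kb of a TSS. It also depended on which region was read. The HOXC6 percentile was that of HOXC9 in some libraries and that of HOXC4 in the others. UV groups overlapped for HOXC9 (exact permutation p = 0.257) and for HOXC4 (exact permutation p = 0.114).

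Besides HOXD9 and HOXC6, of 8 genes with an unadjusted limma p below 0.05, 7 had a negative difference. The differences were -19.2 points for HOXD4, which was at 0 in 6 libraries, -11.5 points for HOXA11, a gene of forearm and uterus development, -11.3 for HOXB13, a prostate gene, -8.45 for HOXA13, -8.21 for HOXB6, -7.47 for HOXC10 and -5.28 for HOXA3. HOXB6 gave -0.41 points within 1 kb of a TSS, HOXA13 -1.92 with regions of q at or below 0.01, and HOXD4 0 under that threshold or without extension. HOXD13, of the digits, was 14.8 points higher, but the difference had the other sign with no extension, with an extension of 5 kb and within 1 kb of the TSS. Groups of these genes overlapped.

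A single HOX site separated UV from no UV by presence. The site chr7:27134269-27134720, in introns of HOXA3 and HOXA-AS3 and 3784 bp from the nearest coding TSS, HOXA4, had a region in all 4 libraries post UV and in none without. It was weak, with percentiles of 2.44 and 23.9 in WT and 9.02 and 29.2 in ASH1L-/- cells, and its window holds 1 AP-1 match. The share of 1 in 145 (0.69%) was that of all sites, 0.686%. Presence in the unchallenged libraries alone was found at 0 HOX sites and at 0.0967% of all sites. By percentile, 1 of 88 HOX sites was higher without overlap (1.14% against 5.69% of all sites), the same site, and 2 were lower (2.27% against 4.44%), those of HOXC13 and of chr12:54005883-54006325 in the HOXC6 span.

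The UV difference was also compared between genotypes. With limma, 0.112% of all genes had an adjusted p below 0.05 for this contrast and, of the HOX genes, 1 (HOXD4), from which nothing is read for the reason given next. An unadjusted p below 0.05 was found for 3 of 38, against 4.36%. HOXD4, at chr2:176151550-176153226, gave 39.3 and 37.5 in unchallenged WT cells and 0 in the other 6 libraries. Its UV difference was -38.4 points in WT and 0 in ASH1L-/- cells. The gene entered the fit only through the 2 libraries in which it had a region, and the other 6 have no spread, so that the adjusted limma p of 0.00495 is not evidence of a difference. Both regions had the commonest fold enrichment of their list, 2.90 and 2.92, which 7.45% and 9.79% of the regions shared, and an exact permutation test of the same contrast gave p = 0.429.

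HOXA5, a gene of lung development, gave 90.8 and 86.4 in WT and 79.4 and 72.9 in ASH1L-/- cells without UV, and 80.7 and 75.9 in WT and 82.7 and 81.5 in ASH1L-/- cells post UV. Percentiles were thus lower post UV in WT by 10.3 points at the mean and higher in ASH1L-/- cells by 5.96, in every library. The contrast was 16.3 points (SE 4.31, adjusted limma p = 0.907, exact permutation p = 0.0286). HOXA6, which did not pass the unadjusted threshold, had the same percentiles outside unchallenged ASH1L-/- cells and a contrast of 11.8 points (exact permutation p = 0.114). HOXD8, the third gene, had a contrast of -36.8 points (adjusted limma p = 1.0, exact permutation p = 0.0857).

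Over whole clusters, the share of bases inside regions was larger post UV, in HOXA and HOXB without overlap. Without UV, HOXA had 8.82% and 8.72% in WT and 9.82% and 7.83% in ASH1L-/- cells, and post UV 10.3% and 14.4% in WT and 10.9% and 11.9% in ASH1L-/- cells. The means were 11.9 ± 1.78% and 8.80 ± 0.814% (SD, n = 4 and 4). In HOXB the means were 8.33 ± 0.926% and 6.14 ± 0.988%, in HOXC 9.90 ± 1.03% and 8.17 ± 0.969%, and in HOXD 7.11 ± 1.53% and 5.27 ± 1.43%.

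These tests were added after the data were seen. The exact permutation p was 0.0286 for HOXA and HOXB, 0.0571 for HOXC and 0.171 for HOXD, and after Benjamini-Hochberg adjustment over 8 tests of coverage 0.114 for HOXA and HOXB. The mean number of regions was 25.25 post UV and 23.75 without in HOXA, and 20.0 and 19 in HOXB. Regions of the whole lists were wider post UV, with median widths between 356 and 444 bp against 242 to 291 bp. Divided by the coverage of the flanks of 1 Mb on each side, HOXA gave 2.78 to 3.54 post UV and 2.01 to 2.48 without, and HOXB 1.61 to 1.94 and 1.33 to 1.59 (exact permutation p = 0.0286 for both), while in HOXC and HOXD these ratios overlapped (exact permutation p = 0.229 and 0.171). Undivided coverage of all 4 clusters overlapped between genotypes, with exact permutation p between 0.4 and 0.8. Divided by the flanks, HOXC was lower in all 4 ASH1L-/- libraries, with 1.55 to 1.98 against 2.07 to 2.19 in WT (exact permutation p = 0.0286, unadjusted), and the other clusters overlapped.

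**Figure D5:**
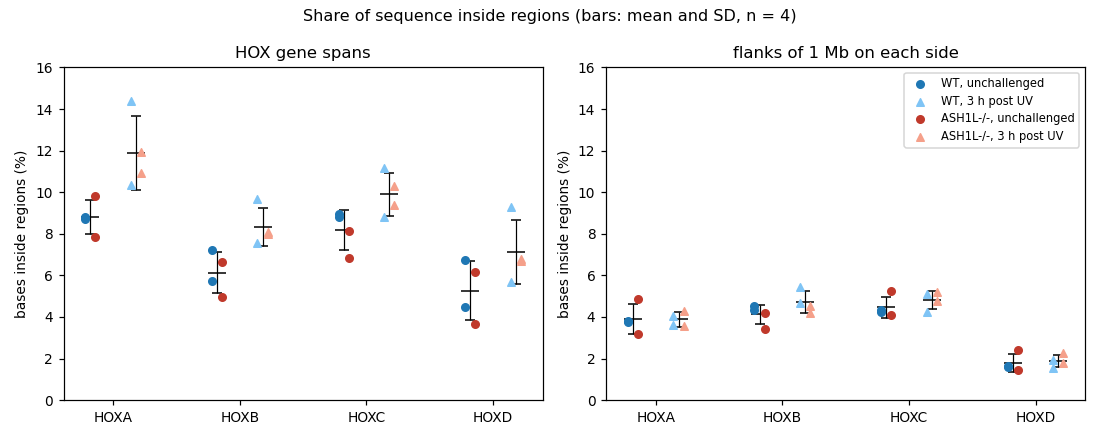
Percent of bases inside regions (y axis) in the HOX gene spans (left) and in the flanks of 1 Mb on each side (right) of the 4 clusters, for each library, with unchallenged cells left and cells 3 h post UV right in each pair. Horizontal lines are means and whiskers the SD of 4 libraries. In HOXA and HOXB all 4 values post UV lie above the 4 values without UV, and the HOXA flanks overlap.

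Genes that regulate or accompany HOX genes were examined in the same way. Of 44 such genes, 33 had a TSS region in all 8 libraries, and with limma 0 of 44 had an adjusted p below 0.05 for genotype or UV. The genotype groups did not overlap at 1 gene, MORF4L1, which encodes a chromodomain partner of ASH1L, with 93.8 in ASH1L-/- and 89.3 in WT cells at the mean. UV groups did not overlap at 2 genes that were higher, PBX2, a HOX cofactor (78.1 against 66.0), and KDM6A, which removes the Polycomb mark (98.8 against 96.7). They did not overlap at 5 that were lower, KMT2A of the trithorax side (67.3 against 81.0), the Polycomb genes EED (86.6 against 96.7), CBX8 (75.1 against 87.4) and PHC3 (89.1 against 91.7), and the insulator gene CTCF (93.0 against 96.5). Each had p = 0.0286 in the exact permutation test before adjustment. Of the 44 genes these were 2.27% higher by genotype, and 4.55% higher and 11.4% lower by UV, near or below the 2.18%, 3.99% and 15.0% of all genes.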

How the data were processed

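ATAC-seq peak lists of 8 libraries were used, 2 for each of the 4 groups, with groups and replicate numbers from the sample titles. The authors trimmed reads with cutadapt 1.9.1, aligned them with Bowtie2 2.4.5 to hg38, removed duplicates and filtered reads (Picard, SAMtools 1.7, bedtools 2.29.2), and called peaks with MACS2 2.2.7.1 in each library, without pooling, as the methods and the submitters' processing notes give them. The deposited lists held a fold enrichment, the ratio of pileup to local background at a summit, and, as MACS2 gave the authors them, the −log10 p-value and the −log10 q-value. A deposited score was not used. No value was normalised between libraries, so only ranks within a list were compared.

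Records with the same interval were joined to 1 region with its highest fold enrichment. Read depth is not in the lists. A relative depth, the mean pileup, was solved from fold enrichment and p-value, for 100% of the pairs used, and checked on simulated pairs. Precision is given by the spread of the libraries, and no counting interval was possible.

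Genes were the protein-coding genes of GENCODE release 44. Differences of single genes or sites were tested by exact two-sided permutation over 70 assignments of 4 and 4 libraries, and across the 18678 genes with a region in at least 2 libraries with limma 3.58.1 in R 4.3.3 (genotype + UV, Benjamini-Hochberg adjustment, threshold 0.05), tested on simulated data. The p-values measure the spread between libraries that the labels call biological replicates, 2 in each group. In the exact tests and the SDs of 4 libraries, each side pooled 2 groups. Their spread thus also holds the difference between those groups. A limma model with 4 group means gave the contrast of UV between genotypes. Sites were regions of the 8 lists joined where they overlapped, and HOX sites those touching an extended HOX span. The sequences of the strongest HOXB and HOXC sites are not reported here. All 38 genes are shown in the figures, though not all are named in the text. Named besides were the strongest site of each cluster by mean percentile, all sites present in 1 side alone, regulators past the exact test, EVX1 and EVX2. Other sites were named after their values were seen. The genes and lists were chosen with earlier results of these data known. Other thresholds, windows, percentiles, left-out libraries and replicate blocks were tried as alternatives. Python 3.11.15, numpy 2.4.6, pandas 2.3.3 and scipy 1.17.1 were used.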

Additional observations from a re-analysis of the deposited data

Results flagged for a closer look

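The UV difference of HOXA5 went in opposite directions in the genotypes in every library, lower post UV in WT and higher in ASH1L-/- cells, and differed by 16.3 points. An exact permutation test of this contrast gave p = 0.0286 and limma across all genes an adjusted p of 0.907, so that it did not pass the adjustment. HOXA6 had the same percentiles outside unchallenged ASH1L-/- cells. There it gave 84.4 and 76.7, on both sides of the 82.7 and 81.5 post UV, and its contrast was 11.8 points (exact permutation p = 0.114).

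The UV difference of HOXD4 differed by 38.4 points between genotypes (exact permutation p = 0.429), with a region in 2 unchallenged WT libraries and in none of the other 6. It entered the limma fit through these 2 libraries alone and the other 6 have no spread, so that its limma call is not evidence of a difference, and the call was lost with the replicate number as a block.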

How the results depend on the processing

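Without overlap of genotypes, the count of 1 HOX gene became 0 with q below 0.05, without extension, within 1 kb of a TSS, over every record and for the number of regions, and 3 with an equal number of regions (HOXA13, HOXB4 and HOXC5). With q at or below 0.01 the 1 gene was HOXA13 (-15.7 points, exact permutation p = 0.0286). HOXC5 overlapped there (-23.9 points, exact permutation p = 0.0571). The count was 1 to 7 with 1 library left out, with 7 without WT unchallenged replicate 1 and 4 without ASH1L-/- unchallenged replicate 1. For UV the count of 3 became 0 for the number of regions 4 with 5 kb (HOXB2, HOXB7, HOXC13 and HOXD8) and 2 (HOXC13 and HOXD9) with q at or below 0.01, within 1 kb of a TSS and over every record, and was 3 to 10 with 1 library left out, with 10 without ASH1L-/- unchallenged replicate 2 and 9 without WT unchallenged replicate 2. Genotype differences of the other sign were 36.0 points for HOXC5 without extension and 8.77 within 1 kb of a TSS, and in numbers of regions 1.25 for HOXC5, 0.75 for HOXA13 and -0.5 for HOXC10. UV differences of the other sign were 2.43 points for HOXA3 within 1 kb of a TSS, -3.14, -2.84 and -7.96 for HOXD13 without extension, with 5 kb and within 1 kb of a TSS, and in numbers of regions 1.75 for HOXA11, 1.25 for HOXA3, 0.25 for HOXB13, 0.5 for HOXB6 and -0.25 for HOXD13. The cause was not tested. Sites present in 1 genotype alone were 1 to 2 with 1 library left out. Those present in 1 UV state alone were 0 with q at or below 0.01, 3 with an overlap of 50% and 1 to 2 with 1 library left out. The UV difference in coverage was 2.28 to 3.62 percentage points in HOXA with 1 library left out, 1.75 to 2.56 in HOXB, 1.28 to 2.10 in HOXC and 1.12 to 2.33 in HOXD. Over single genes, leaving out libraries and the block aside, 136 values kept direction and side of the threshold, though some shrank to near 0 (HOXA7 by genotype to -1.98 with 5 kb, HOXB6 by UV to -0.41 within 1 kb of a TSS), 6 came to 0 without having passed the threshold (HOXD4 and HOXD12), 12 lost the threshold, 3 gained it and 14 turned.

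Whether libraries with the same replicate number were paired is not given in the labels. Correlations between groups of the deviations of replicate 1 from its group mean lay between -0.0636 and 0.136, which cannot decide it. With the replicate number as a block, 1 HOX gene reached the smallest possible exact permutation p, 0.0556, between genotypes and 4 did for UV. The 4 include HOXB6, whose UV groups overlapped when replicate numbers were ignored. The UV by genotype contrast of HOXD4 had an adjusted limma p of 0.0539 with the block, leaving 0 genes. Coverage differences with the block were 3.10 points in HOXA and 2.2 in HOXB, each with exact permutation p = 0.0556, the smallest possible there. Without read counts, small differences at weak regions cannot be judged, and ties in fold enrichment make low percentiles coarse.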
